A study of Mus musculus with 5 samples.

Results

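The genes of the DNA replication machinery were followed through 5 RNA sequencing libraries of mouse embryonic fibroblasts undergoing reprogramming. The 45 genes were taken by symbol, as a list of licensing factors, helicase subunits, polymerases, clamp and loader, nucleotide enzymes and chromatin assembly factors. All 45 symbols matched a gene ID among the 29267 genes of each deposited table, and all 45 had a mean of at least 1 CPM (counts for each 1000000 of the library) in every comparison. The rule that takes them uses no measured level, but the list was drawn up with earlier results of these data known.

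All 5 groups are mouse embryonic fibroblasts of the ICR background, with 1 library each. At day 4 the Flag library came from cells expressing Flag and the CypD library from cells expressing CypD, the mitochondrial cyclophilin encoded by Ppif. At day 8 there were an untreated control and 2 treated libraries, 1 with mastoparan (a peptide of wasp venom) and 1 with paraquat (a herbicide that cycles electrons to oxygen). The series title names the mitoflash, a transient burst of superoxide signal in single mitochondria, as what the regulated genes were sought for. Not given in the sources used here are doses, reprogramming factors, vector and number of embryos. The genotype label of the day-8 samples names CypD expression too, whereas the design text describes those cells by compound alone. Ppif stood at 761 CPM in the CypD library and 44.2 CPM in the Flag library, and at 29.2 to 34.2 CPM in the 3 day-8 libraries.

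Replication starts when the origin recognition complex, with Cdc6 and Cdt1, loads the ring of Mcm2 to Mcm7 onto DNA before S phase, while geminin (Gmnn) holds Cdt1 in check afterwards. Cdc45 and the GINS complex join the ring to form the active helicase, RPA covers the exposed single strands, and polymerase alpha with its primase lays down primers that polymerases delta and epsilon extend on the Pcna clamp. Ribonucleotide reductase and thymidylate synthase supply the nucleotides, and the CAF-1 complex places histones on the new DNA. Many of these genes are transcribed under E2F factors as cells enter S phase, and dividing fibroblast cultures express them strongly.

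Because E2F sites are the textbook control element of these genes, the promoters were searched for the letters TTTCCCGC, TTTCGCGC, TTTGCCGC and TTTGGCGC on both strands. RefSeq promoter sequences of GRCm38.p6, from 250 bases before to 50 bases after each gene's start, were at hand for 37 of the 45 genes. Missing were Prim2, Gins2, Pole, Mcm4, Gins4, Gmnn, Gins1 and Rfc2. A match was found for 14 of the 37 genes (37.8%), against 4.70% of the 10321 tested genes in the same table. Of the 42 windows of the 37 genes 33.3% held a match, against 2.26% of all 32851 promoter windows of that length. The 14 genes were Orc1, Cdc6, Cdt1, Mcm3, Mcm5, Mcm6, Mcm7, Gins3, Pola1, Pold1, Pold3, Pole2, Rfc3 and Lig1. The windows below were chosen as examples. A match before the start was also found for Orc1, Mcm7 and Rfc3, whose windows are not shown. They read 5′ to 3′ on the gene's strand, and GCGGGAAA and GCGCCAAA are the same letters read on the other strand. The E2F letters are in capitals, but a match that overlaps an earlier one was not marked or placed. Such a match on the other strand is GCGCCAAA in the Mcm5 window. In the Mcm6 window with the match 110 to 103 bases before the start it is GCGCGAAA.
Mcm5, chr8:75109330-75109389, plus strand, match 153 to 146 bases before the start: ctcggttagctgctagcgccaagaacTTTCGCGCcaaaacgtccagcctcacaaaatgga
Mcm6, chr1:128359719-128359778, minus strand, match 47 to 40 bases before the start: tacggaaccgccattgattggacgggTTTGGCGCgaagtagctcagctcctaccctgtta
Mcm6, chr1:128359782-128359841, minus strand, match 110 to 103 bases before the start: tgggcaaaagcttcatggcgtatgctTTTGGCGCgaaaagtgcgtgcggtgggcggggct
Cdc6, chr11:98908005-98908028, plus strand, match 138 to 131 bases before the start: ggtggagaGCGGGAAAtcgcctgg
Pola1, chrX:93632278-93632301, minus strand, match 138 to 131 bases before the start: atcacaggGCGCCAAAtgcactcc
Gins3, chr8:95633510-95633533, plus strand, match 41 to 34 bases before the start: agtgcggcGCGGGAAAgcgagttt

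The Mcm5 and Mcm6 windows lie before the RefSeq gene and touch no GENCODE exon. The Gins3 window overlaps an annotated Gins3 exon, and the Cdc6 and Pola1 windows lie inside the RefSeq span of the gene but in no GENCODE exon, so these are cut to 24 bases. The CCAAT box was found for 23 of the 37 genes, against 43.4% of tested genes. Of the 42 windows of the 37 genes 57.1% held it, against 37.4% of all windows. The cell cycle homology letters TTTGAA or TTCGAA, typical of late cell cycle genes, were found for 7 of 37 genes, against 16.2% of tested genes. Of the 42 windows 16.7% held them, against 19.2% of all windows. A list of 28 mitosis genes had E2F letters in 2, cell cycle homology letters in 17 and the CCAAT box in 18 of 23 promoters. Among other replication genes, described further below, E2F letters were found in 12 of 53. Cell cycle homology letters were also found in 12 of these 53, and the CCAAT box in 24. A match describes the letters and is no evidence of binding.

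Values below are expected counts scaled to CPM with TMM library factors, so that most genes keep their level between libraries. A log2 ratio is taken on the log2(CPM + 0.5) scale, and a fold is the ratio of scaled counts with its 95% Clopper-Pearson interval from the counts of the pair. Such an interval covers counting error only, reads of amplified libraries are not independent molecules, and with 1 library a group no difference has a replicate check or a test. Shares over all genes start at a mean of 1 CPM and are not matched to the 45 genes in level. Sparse genes pass 1.5-fold by counting error more often, and abundant genes have narrower intervals. Shares past 1.5-fold are therefore also given here for genes of at least 5 CPM, a level that all 45 genes pass. The libraries held 2426015 to 3426702 expected counts, so 3 counts correspond to 0.8755 to 1.237 CPM. These are bulk libraries, in which fewer cells in S phase and less RNA in each cell cannot be told apart.

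The paraquat library stood apart from the others in a trend along transcript length. Against the control, the median log2 ratio of all genes ran from 0.53 in the shortest of 40 length bins (median length 445 bases) to -0.23 in the longest (9300 bases). In the mastoparan library the same medians were 0.09 and -0.07. CypD against Flag at day 4 ran from 0.13 to -0.09. For the genes named singly in comparisons with the paraquat library, values with the trend removed are also given. Fibroblast markers summed to 6522 to 7067 CPM in all 5 libraries, most of it Vim and Col1a2, but the 10 genes did not move together. At day 8, 5 of them lay below both day-4 libraries, with Dcn at a log2 difference of -1.32, Lum at -0.86 and Pdgfra at -0.63, and 3 lay above, with Thy1 at 0.74. The 5 epithelial markers summed to 163 CPM in Flag and 148 CPM in CypD, and to 424 to 484 CPM at day 8, where each of the 5 lay above both day-4 libraries. Pluripotency markers summed to 3.77 to 9.73 CPM. Of the 4 blood markers Adgre1 and Hba-a1 were at 0 in every library and Ptprc had at most 1 count. The macrophage gene Cd68 had 13 to 53 counts and was higher in each day-8 library (log2 1.18). The endothelial markers summed to 0.649 to 5.61 CPM, with Cdh5 at 0 throughout and Pecam1 at 15 counts with mastoparan. The muscle genes Myod1 and Myog were at 0. The neural markers summed to 26.4 to 73.4 CPM, and Tubb3 was lower in each day-8 library (-1.61). Sox1 (0.42) and Map2 (-0.48) overlapped between days, and Gfap had at most 1 count. Whether other cell types were present, and their part in the results, was not tested.

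**Figure D1:**
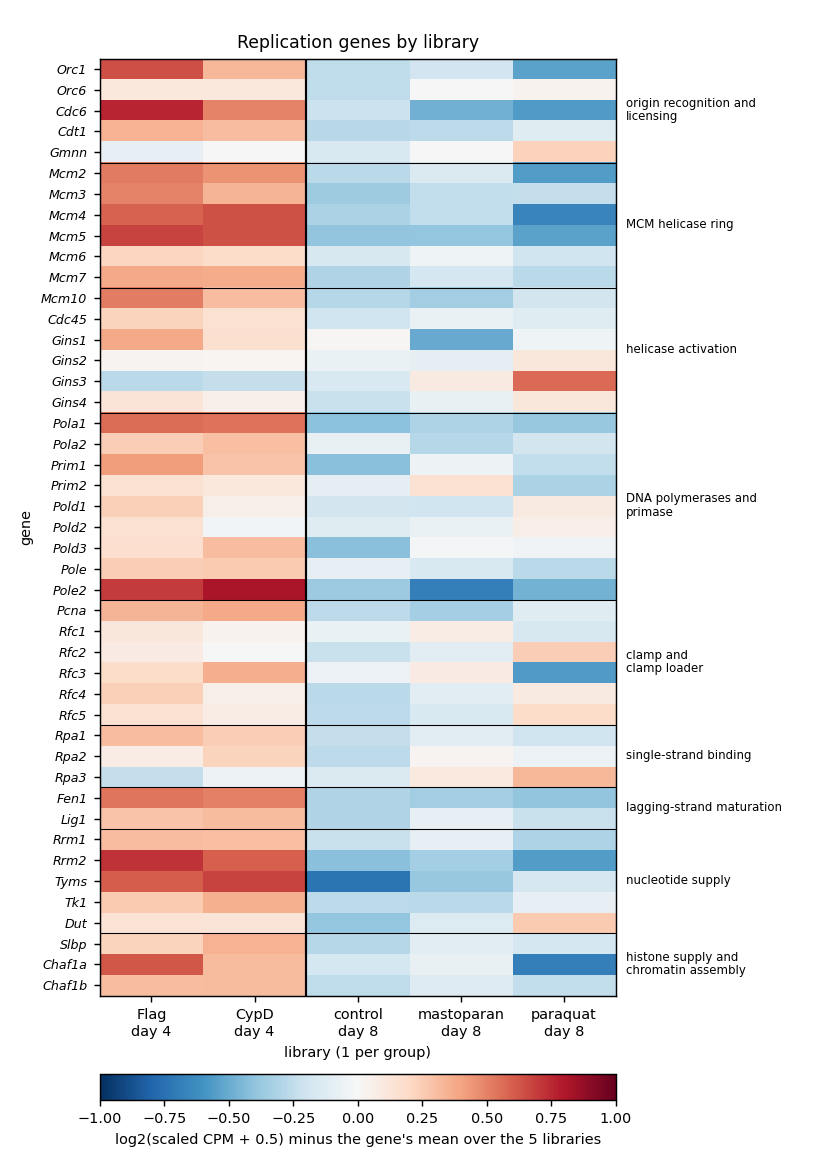
Heat map of the 45 replication genes (rows, ordered by role) in the 5 libraries (columns), coloured by the log2 difference of each gene's scaled CPM from its own mean over the libraries. Most rows are higher in both day-4 columns than in the 3 day-8 columns, and Gins3 is the row with the opposite order.

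The clearest pattern was between days. In 32 of the 45 genes all 3 day-8 libraries lay below both day-4 libraries, whereas 28.1% of the 13584 genes tested did so. In 1 gene, Gins3, all day-8 libraries lay above, against 28.5% of genes tested, and in the other 12 the days overlapped. The median log2 difference of the 45 genes between the day-8 and day-4 means was -0.46, and that of all genes was -0.0021. The libraries of a day had different treatments and are not replicates, and day, culture and library preparation cannot be told apart.

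**Figure D2:**
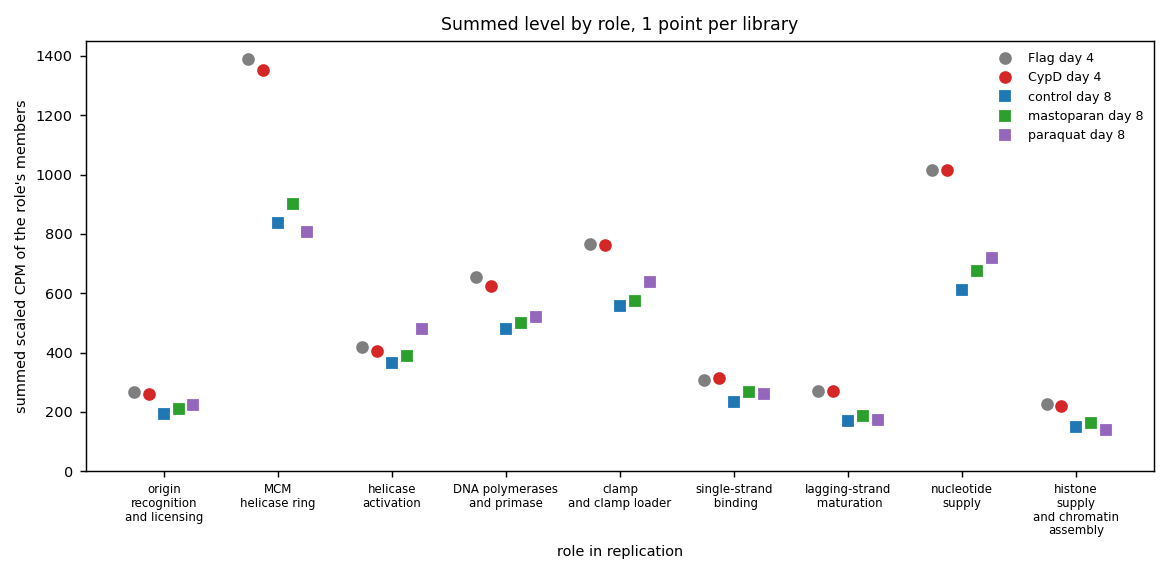
Summed scaled CPM of the genes of each role in replication, with 1 point per library and an axis that starts at 0. For the MCM ring the day-8 points lie between 806 and 900 CPM and the day-4 points at 1352 and 1389 CPM, whereas for helicase activation the day-8 points (364 to 481 CPM) enclose the day-4 points.

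Licensing factors came first in this order of roles. Cdc6, the ATPase that recruits the MCM ring to origins (11:98907801-98923940 on mm10, plus strand), stood at 35.5 CPM in Flag, 29.5 in CypD, 17.8 in the control, 14.7 with mastoparan and 13.9 with paraquat. Both day-4 values were well above the 3 day-8 values, with a gap of 0.71 on the log2 scale between the nearest libraries. Orc1, the largest ATPase subunit of the origin recognition complex, was sparsely counted, at 17.4 CPM in Flag, 13.9 in CypD, 9.08 in the control, 9.47 with mastoparan and 7.36 with paraquat, from 17 to 48 counts. The day-4 pair was again higher without overlap. Cdt1, the partner of Cdc6 in loading, was at 83.7 CPM in Flag, 81.7 in CypD, 54.2 in the control, 54.7 with mastoparan and 60.2 with paraquat. Geminin, which binds and inhibits Cdt1, did not follow, at 62.7 CPM in Flag, 66.0 in CypD, 59.7 in the control, 66.7 with mastoparan and 78.0 with paraquat, with the paraquat library highest and the control lowest. Per length, the TPM of Cdt1 was 0.540 of that of Gmnn in Flag and 0.489 in CypD, and 0.317 to 0.370 of it at day 8. Orc6 was lower at day 8 by little: its values were 68.3 CPM in Flag, 68.1 in CypD, 53.2 in the control, 63.5 with mastoparan and 65.0 with paraquat, and only 0.07 on the log2 scale separated the nearest libraries.

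The 6 subunits of the MCM ring, the motor of the replicative helicase, were all lower in every day-8 library, against 28.1% of all genes tested. Their median log2 difference between the day means was -0.75. Mcm5 (8:75109569-75128439, plus strand), which forms the gate of the ring with Mcm2, showed the widest gap: 247 CPM in Flag, 241 in CypD, 117 in the control, 118 with mastoparan and 106 with paraquat. The day-4 libraries held more than the day-8 libraries by at least 1.02 on the log2 scale. Mcm4 (16:15623897-15637400, minus strand) was at 114 CPM in Flag, 118 in CypD, 60.6 in the control, 63.5 with mastoparan and 47.7 with paraquat, and Mcm2 at 169 CPM in Flag, 162 in CypD, 97.9 in the control, 107 with mastoparan and 80.1 with paraquat. In both genes the paraquat library was the lowest of the 5, and the gap of Mcm4 between days was 0.84 on the log2 scale. Mcm3 was at 184 CPM in Flag, 164 in CypD, 102 in the control, 109.8 with mastoparan and 110.5 with paraquat. Mcm7 was the most abundant subunit, at 402 CPM in Flag, 401 in CypD, 251 in the control, 274 with mastoparan and 257 with paraquat. Mcm6 had the smallest difference of the ring, -0.33 between the day means, and was at 272 CPM in Flag, 266 in CypD, 210.2 in the control, 228 with mastoparan and 204 with paraquat. The days still did not overlap for these 3 subunits.

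Subunit levels can be set side by side as TPM, the deposited value per transcript length. In each library Mcm7 was the highest subunit (144 to 246 TPM) and Mcm4 the lowest (15.9 to 48.1 TPM). The order Mcm7, Mcm6, Mcm3, Mcm5, Mcm2, Mcm4 held in 4 libraries, and in the paraquat library Mcm3 came before Mcm6. The highest was 4.99 to 9.08 times the lowest. The assembled ring holds each subunit once, but RNA levels do not give protein amounts. Mcm7 shares 23.7% of its 49-base windows with other genes, so its level is uncertain to that extent.

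**Figure D3:**
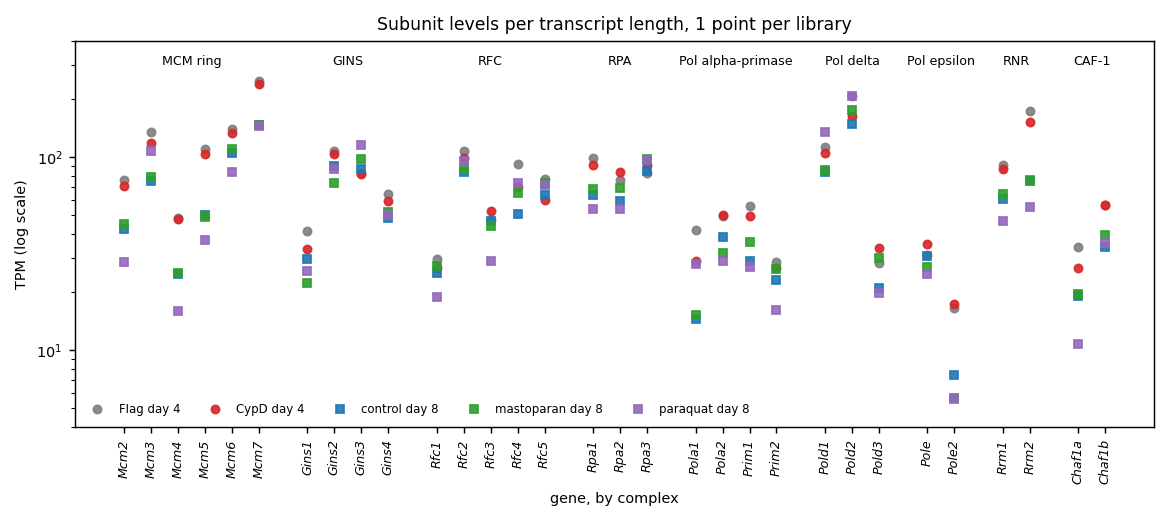
Deposited TPM (log axis) of the subunits of each replication complex, with 1 point per library. Subunits of 1 complex differ several-fold, as in the MCM ring, where Mcm7 lies at 144 to 246 TPM and Mcm4 at 15.9 to 48.1 TPM, and day-4 points lie above day-8 points for most subunits.

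Among the genes that turn the ring into an active helicase the days were less separate. Mcm10, needed for helicase activation, was at 69.1 CPM in Flag, 59.9 in CypD, 39.6 in the control, 37.9 with mastoparan and 42.5 with paraquat, and Cdc45, the helicase's partner protein, at 58.4 CPM in Flag, 55.6 in CypD, 43.5 in the control, 47.7 with mastoparan and 45.9 with paraquat. Both were lower at day 8 in every library. Gins1, the least abundant GINS subunit per length in each library, was also lower at day 8, at 25.7 CPM in Flag, 22.0 in CypD, 19.8 in the control, 13.7 with mastoparan and 19.1 with paraquat. Gins2, which shares 65.5% of its windows with the overlapping gene Gse1, was at 80.5 CPM in Flag, 79.9 in CypD, 75.6 in the control, 74.4 with mastoparan and 85.3 with paraquat, and Gins4 at 56.4 CPM in Flag, 53.6 in CypD, 44.1 in the control, 49.1 with mastoparan and 55.9 with paraquat. The days overlapped for both. Gins3 (8:95633453-95645060, plus strand), the remaining subunit of this tetramer, was at 130.2 CPM in Flag, 133 in CypD, 141 in the control, 167 with mastoparan and 233 with paraquat. It was highest in the paraquat library, and the gap between its control and CypD values was only 0.09 on the log2 scale. Within GINS, Gins2 had the highest TPM in Flag, CypD and the control, and Gins3 the highest with mastoparan (97.9 TPM) and paraquat (116 TPM).

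Of the 9 polymerase and primase genes 6 were lower in every day-8 library, against 28.1% of all genes tested. Pole2 (12:69201773-69228195, minus strand), the second subunit of the leading-strand polymerase epsilon, was at 18.2 CPM in Flag, 19.7 in CypD, 8.43 in the control, 6.67 with mastoparan and 7.80 with paraquat, from 18 to 68 counts. Its gap of 1.06 on the log2 scale was the widest of the 45 genes. The catalytic subunit Pole differed less, at 50.9 CPM in Flag, 51.5 in CypD, 40.5 in the control, 38.6 with mastoparan and 35.5 with paraquat. In TPM, Pole was 1.87 times Pole2 in Flag and 2.05 times in CypD, and 4.15 to 4.76 times at day 8. Pola1 (X:93304767-93632155, minus strand), the catalytic subunit of the priming polymerase alpha, was at 65.1 CPM in Flag, 64.6 in CypD, 33.1 in the control, 35.4 with mastoparan and 33.8 with paraquat. Its day-8 values were close together and each was well under both day-4 values, with a gap of 0.86 on the log2 scale. The accessory subunit Pola2 was at 78.9 CPM in Flag, 82.0 in CypD, 63.2 in the control, 54.4 with mastoparan and 58.5 with paraquat, and the primase catalytic subunit Prim1 at 56.4 CPM in Flag, 51.5 in CypD, 31.5 in the control, 40.7 with mastoparan and 35.5 with paraquat. Both again did not overlap between days. Pold3, an accessory subunit of the lagging-strand polymerase delta, was at 48.5 CPM in Flag, 53.6 in CypD, 32.1 in the control, 42.5 with mastoparan and 42.0 with paraquat. The catalytic subunit Pold1 was at 118 CPM in Flag, 104 in CypD, 87.6 in the control, 86.7 with mastoparan and 106 with paraquat and Pold2 at 183 CPM in Flag, 162 in CypD, 152 in the control, 158 with mastoparan and 173 with paraquat. The large primase subunit Prim2 was at 36.7 CPM in Flag, 35.6 in CypD, 30.8 in the control, 36.8 with mastoparan and 26.4 with paraquat. For Pold1, Pold2 and Prim2 a day-8 library reached at least the lower day-4 value.

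The clamp Pcna, the ring that tethers polymerases to DNA, was at 382 CPM in Flag, 393 in CypD, 251 in the control, 238 with mastoparan and 276 with paraquat, higher in both day-4 libraries. All 5 clamp loader subunits had a lower mean at day 8, with log2 differences from -0.45 (Rfc3) to -0.07 (Rfc2). Rfc3 alone was lower in each day-8 library, at 40.3 CPM in Flag, 45.8 in CypD, 34.1 in the control, 37.5 with mastoparan and 23.8 with paraquat. For Rfc2, Rfc4 and Rfc5 only the paraquat library reached a day-4 value. Rfc1, the large subunit, was at 89.6 CPM in Flag, 85.1 in CypD, 79.1 in the control, 87.4 with mastoparan and 74.1 with paraquat, and Rfc4 at 59.2 CPM in Flag, 52.4 in CypD, 41.5 in the control, 46.3 with mastoparan and 53.3 with paraquat. Rfc2 was at 105 CPM in Flag, 99.9 in CypD, 85.3 in the control, 92.6 with mastoparan and 118 with paraquat and Rfc5 at 89.6 CPM in Flag, 85.1 in CypD, 67.1 in the control, 72.6 with mastoparan and 91.8 with paraquat, with paraquat the highest library for both. Pcna shares 19.3% of its windows with a pseudogene, Pcna-ps2, and Rfc2 19.9% with other genes.

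Rpa1, the main DNA-binding subunit of RPA, was at 185 CPM in Flag, 177 in CypD, 126 in the control, 138 with mastoparan and 130.4 with paraquat, and the regulatory subunit Rpa2 at 88.0 CPM in Flag, 97.9 in CypD, 69.7 in the control, 85.3 with mastoparan and 80.6 with paraquat. Both were lower at day 8, Rpa2 by only 0.05 on the log2 scale between the nearest libraries. The small subunit Rpa3 overlapped between days, at 34.3 CPM in Flag, 39.1 in CypD, 36.6 in the control, 43.5 with mastoparan and 51.1 with paraquat. Unlike those of the MCM ring, the RPA subunits lay close together per length, with a highest over lowest TPM of 1.09 to 1.80. Fen1 (19:10199132-10204169, minus strand), the nuclease that trims Okazaki flaps, was at 92.3 CPM in Flag, 90.3 in CypD, 51.6 in the control, 49.8 with mastoparan and 48.1 with paraquat, and Lig1, the ligase that joins the fragments, at 178 CPM in Flag, 181 in CypD, 118 in the control, 137 with mastoparan and 125 with paraquat. Each was lower in all 3 day-8 libraries, Fen1 with a gap of 0.80 on the log2 scale. Fen1 shares 76.9% of its windows with other genes, mostly with the overlapping Gm10143, which held 2 to 5 counts, and adding those counts moved the log2 ratio of control to Flag from -0.83 to -0.85.

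Nucleotide supply separated the days clearly. Rrm2 (12:24708241-24714146, plus strand), the S-phase subunit of ribonucleotide reductase, was at 244 CPM in Flag, 224 in CypD, 111 in the control, 117 with mastoparan and 100.1 with paraquat, with a gap of 0.94 on the log2 scale. The large subunit Rrm1 was at 239.9 CPM in Flag, 238 in CypD, 166 in the control, 182 with mastoparan and 156 with paraquat. Its difference was smaller, so the TPM of Rrm2 was 1.91 times that of Rrm1 in Flag, 1.75 times in CypD and 1.18 to 1.24 times at day 8. Tyms (5:30058202-30073617, minus strand), which makes thymidylate, was at 122 CPM in Flag, 128 in CypD, 48.0 in the control, 61.4 with mastoparan and 71.1 with paraquat. Here the day-8 libraries differed among themselves, with the control lowest and paraquat highest, and the gap to day 4 was 0.775 on the log2 scale. Tk1, the salvage thymidine kinase, was at 193 CPM in Flag, 206 in CypD, 135 in the control, 134 with mastoparan and 152 with paraquat. Dut, the dUTPase that keeps uracil out of DNA (2:125247190-125258608, plus strand), was at 218 CPM in Flag, 217 in CypD, 152 in the control, 181 with mastoparan and 238 with paraquat, and its paraquat value exceeded both day-4 values. Slbp, which binds the stem-loop of histone mRNAs, was at 86.0 CPM in Flag, 94.1 in CypD, 60.3 in the control, 68.4 with mastoparan and 65.4 with paraquat. The CAF-1 subunits were at 74.6 CPM in Flag, 60.2 in CypD, 42.8 in the control, 46.0 with mastoparan and 29.9 with paraquat for Chaf1a and 66.3 CPM in Flag, 66.6 in CypD, 44.8 in the control, 48.8 with mastoparan and 45.1 with paraquat for Chaf1b. These 3 genes were lower at day 8 without overlap.

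Counts between days depended on single libraries. Without the paraquat library 40 of the 45 genes were lower at day 8 without overlap, against 33.3% of all genes, and without CypD 37, against 36.4%. Leaving out any other library gave 32 to 34, against 32.2% to 34.4% of all genes. Library totals alone gave 35, against 29.4%, and deposited TPM 35, against 32.9%. The genes above numbered 1 under each scaling run.

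Neither the Flag library nor the day-8 control had a compound, and neither had raised Ppif, so this pair was also compared directly. The comparison was added after the values had been seen and spans the change of day. Of the 45 genes 43 were lower in the control, whereas 50.2% of 13584 genes tested had a log2 ratio above 0. The median was -0.52, and 0.00 for all genes. At least 1.5-fold lower were 19 genes, against 12.8% of all genes, and none was 1.5-fold higher, against 19%. Among genes of at least 5 CPM these shares were 11.1% and 14.7%. The counting interval lay below 1 for 36 genes, against 18.8%, and above 1 for none, against 18.2%.

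Tyms was 2.54 times lower in the control than in Flag (95% 2.08 to 3.11), and Rrm2 2.20 times (1.93 to 2.52). Mcm5 was 2.11 times lower (1.85 to 2.41) and Pole2 2.15 times (1.30 to 3.63), the wider interval reflecting 26 and 46 counts. Cdc6 was 1.99 times lower (1.41 to 2.84), Pola1 1.97 times (1.53 to 2.54) and Mcm4 1.88 times (1.56 to 2.27). These 7 genes span licensing, helicase, priming and nucleotide synthesis. Orc1 was 1.91 times lower (1.16 to 3.19) and Mcm3 1.81 times (1.57 to 2.10). Fen1 and Prim1 were both 1.79 times lower, and Mcm10 1.75 times. The remaining 24 genes with an interval below 1 were 1.21 to 1.74 times lower. The intervals of 9 genes held 1, and of these Gins3 (log2 0.12) and Rpa3 (0.09) were the pair with a ratio above 0. The summed counts of the 45 genes gave a fold of 0.676 (0.659 to 0.693), and those of all genes tested 0.992.

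Other replication genes, 65 listed by function, showed the same order of days. Of 64 measured, 46 were lower in every day-8 library, against 28.1% of all genes tested, and 4 were higher, against 28.5%. Against Flag, the control was lower for Dna2, a nuclease and helicase of flap processing (log2 -1.51), for Recql4, a helicase of origin firing (-1.43), for Cad, which begins pyrimidine synthesis (-1.13), and for Rif1, a timing factor (-0.99). Higher were Cda, the cytidine deaminase, at 49 against 7 counts (2.33), and Pold4, the small polymerase delta subunit, at 234 against 78 counts (1.29). Orc5, of the origin recognition complex, was also higher, at 1586 against 943 counts (0.47), and lay above in every day-8 library. Pold4 shares 27.7% of its windows with other genes. Orc5 stood at 1305 to 2291 TPM with an effective length of 416 bases. Orc2 stood at 8.87 to 18.8 TPM and Orc4 at 31.9 to 51.3 TPM. Orc5 also shares 13.6% of its windows with the overlapping Gm15421. Whether its reads, here and in the comparisons below, come from mRNA of the complex subunit was not tested. All 28 mitosis genes, chosen as a list of cell division rather than replication, were lower in each day-8 library, against 28.1% of all genes tested. Their median log2 difference between the day means was -0.63.

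**Figure D4:**
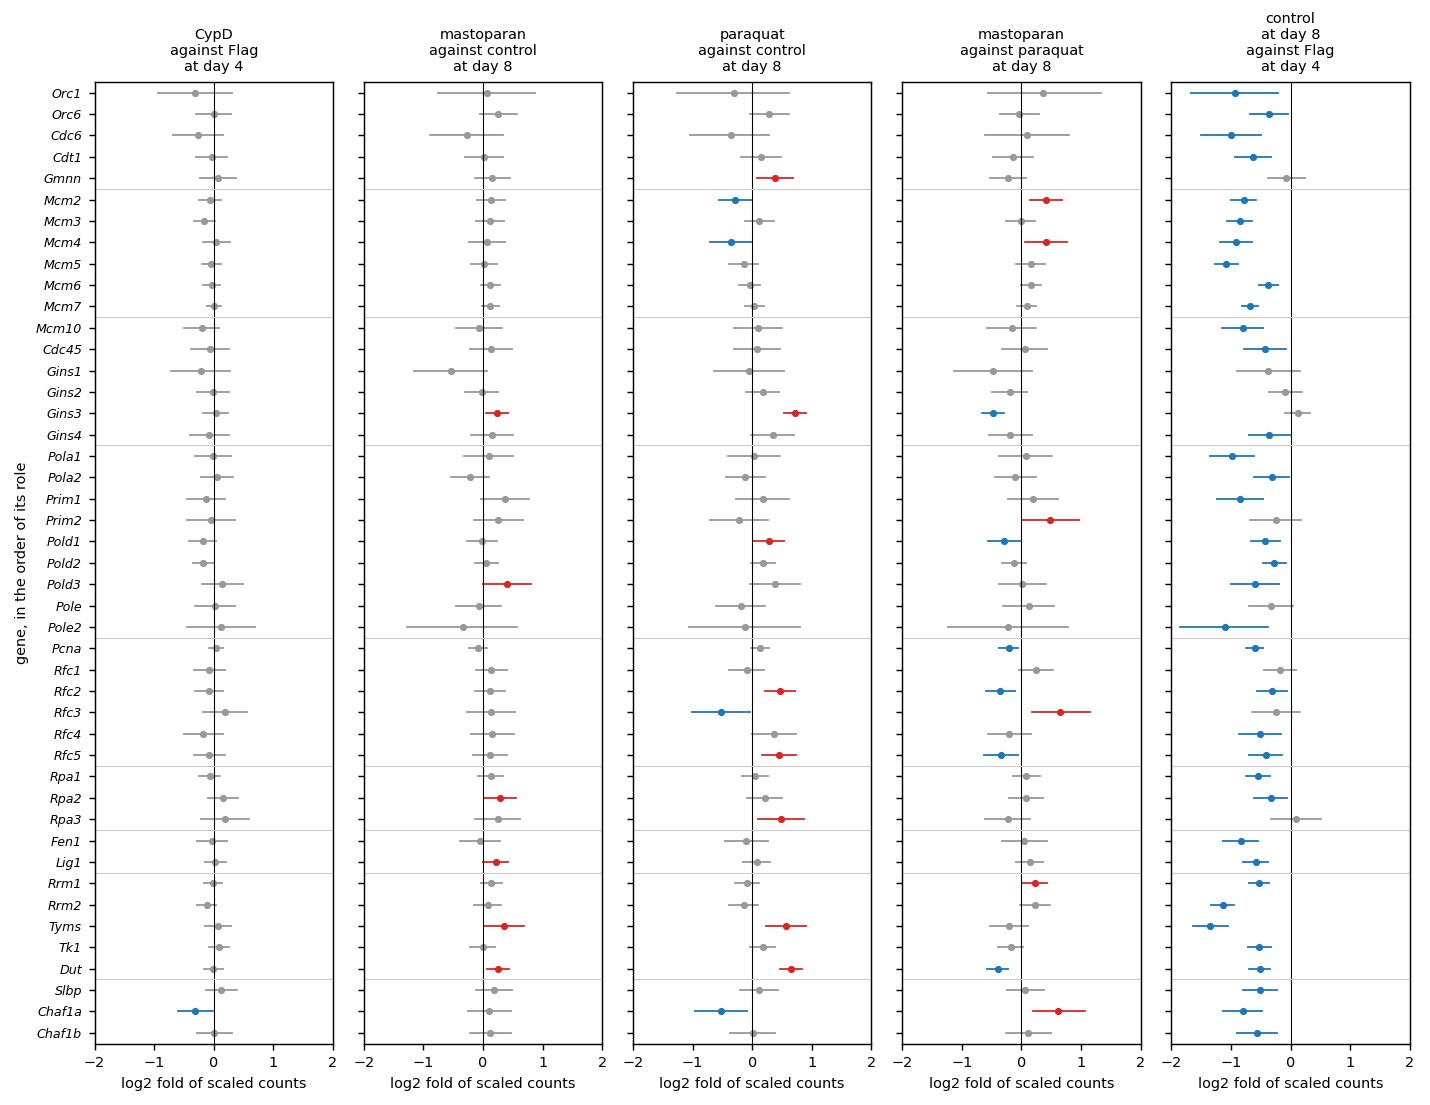
Log2 fold of scaled counts of each of the 45 genes (rows, ordered by role) in the 5 comparisons (panels), with bars for the 95% counting interval (red above 0, blue below 0, grey across 0), which covers counting error only. In control against Flag 43 points lie left of 0, and in CypD against Flag the points lie between -0.31 and 0.18 (the log2 ratio with the pseudocount).

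At day 4, expression of CypD was set against Flag to ask what raised cyclophilin D does to gene expression. The replication genes differed little. Their log2 ratios ran from -0.31 to 0.18 with a median of -0.03, against -0.02 for all genes. Of the 45 genes 16 had a ratio above 0, against 47% of 13244 genes tested. None was 1.5-fold higher (5.22% of all genes) or 1.5-fold lower (5.75%). Among genes of at least 5 CPM these shares were only 1.71% and 2.31%. No interval lay above 1 (4.13%), and 1 lay below 1 (4.19%), that of Chaf1a, the large CAF-1 subunit. Chaf1a had 189 counts in Flag and 208 in CypD, a fold of 0.808 (0.660 to 0.989), and it shares 45.8% of its windows with the overlapping gene Ubxn6. The sources used here do not say whether counting used strand, so reads of that pair cannot be told apart. The summed counts of the 45 genes gave a fold of 0.981 (0.960 to 1.00), and those of all genes tested 1.01.

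The split of ratios above and below 0 in this comparison moved with the scaling, from 16 and 29 to 22 and 23 with DESeq2 size factors or upper-quartile factors and to 12 and 33 with deposited TPM. With the length trend removed it was 20 and 25. All 6 MCM genes lay between -0.16 and 0.04, with 1 above 0. With the length trend removed 5 were above 0. Among other replication genes, Dbf4, the activator of the Cdc7 kinase, had a log2 ratio of 0.31, and Orc5 0.22, Dtymk 0.21 and Rbbp4 0.12, while the maintenance methyltransferase Dnmt1 had -0.16. Of the mitosis genes, the kinesin Kif20a had -0.41 and the kinetochore gene Nuf2 -0.35, and 20 of 28 were below 0.

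At day 8, cells given a compound were compared with untreated cells. Both compounds are set against the same control library, so their ratios share its counting error. With mastoparan 34 of the 45 replication genes had a log2 ratio above 0, against 50.9% of 13651 genes tested. The median was 0.12, and 0.01 for all genes. The differences were small: none reached 1.5-fold higher (5.01% of all genes) or lower (5.87%). Among genes of at least 5 CPM these shares were only 1.94% and 2.28%. Intervals lay above 1 for 6 genes, against 4.01%, and below 1 for none, against 3.26%.

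These 6 genes came from different roles. Pold3 had 99 counts in the control and 121 with mastoparan, a fold of 1.32 (1.01 to 1.74). Tyms had a fold of 1.28 (1.02 to 1.60), with 148 and 175 counts. Rpa2 had a fold of 1.22 (1.01 to 1.48) and Dut 1.19 (1.05 to 1.35). The last, the dUTPase, was the member with the most TPM in this library. Gins3 had a fold of 1.18 (1.03 to 1.34) and Lig1 1.16 (1.00 to 1.34), the lower bound of Lig1 touching 1 when rounded. The sign of Lig1 turned with deposited TPM (-0.03).

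The MCM ring was above 0 for all 6 subunits, by 0.01 to 0.13, but for 5 of 6 with library totals alone or the length trend removed and for 4 of 6 with deposited TPM. All 3 RPA genes were above 0 under every setting run, by 0.13 to 0.29 under TMM. The lowest ratio was that of Gins1 at -0.52, from 61 counts in the control and 39 with mastoparan, with an interval that held 1. The summed counts of the 45 genes gave a fold of 1.08 (1.05 to 1.10), and those of all genes tested 1.02. With deposited TPM the split was 29 above and 16 below. Outside the 45, other replication genes were evenly divided, 33 above and 31 below with a median of 0.02. Dck, which phosphorylates salvaged deoxycytidine, stood at 32 counts with mastoparan and 74 in the control, a fold of 0.468 (0.299 to 0.717), and Dctd at -0.38. The histone chaperone Nasp had 0.23, Nme1 0.20 and Orc5 0.16. Mitosis genes had a median of 0.03.

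With paraquat the 45 genes spread more widely, with an SD of 0.29 between genes against 0.18 with mastoparan. So did all genes tested, with an SD of 0.56 against 0.44. The ratio was above 0 for 28 and below for 17, against 47.4% of all genes above. The median was 0.08, and -0.03 for all genes. At least 1.5-fold higher were 2 genes, Gins3 and Dut, against 8.15% of all genes, and none was 1.5-fold lower, against 10.5%. Among genes of at least 5 CPM these shares were 4.87% and 6.87%. Intervals lay above 1 for 8 genes (11.2% of all genes) and below 1 for 4 (9.77%).

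Gins3, with 436 counts in the control and 537 with paraquat, had a fold of 1.65 (1.45 to 1.87). With the length trend removed its log2 ratio went from 0.72 to 0.80. Dut had a fold of 1.57 (1.39 to 1.78), and its ratio of 0.65 became 0.40 without the trend. Tyms had a fold of 1.48 (1.18 to 1.86), at 0.56 and 0.32 on these scales. Dut and Tyms have short transcripts, and the trend took a part of their ratio that it did not take from Gins3. Rfc2 had a fold of 1.39 (1.17 to 1.65) and Rfc5 1.37 (1.12 to 1.67), clamp loader subunits whose log2 ratios without the trend were 0.40 and 0.38. Rpa3 had a fold of 1.40 (1.07 to 1.82) and geminin 1.31 (1.06 to 1.61). Both were close to the trend of their length, with 0.02 and 0.08 after its removal. Pold1 had a fold of 1.21 (1.01 to 1.45), with 0.28 and 0.19 before and after.

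Lower with paraquat were Chaf1a, with 69 counts against 132 (1.43 times lower, 1.06 to 1.94), and Rfc3, with 55 against 105 (1.43 times, 1.02 to 2.02). Rfc3 (5:151642756-151651242, minus strand) thus went the other way from Rfc2 and Rfc5 of the same clamp loader. Its ratio went from -0.51 to -0.72 without the trend, and that of Chaf1a (17:56040439-56072289, plus strand) from -0.51 to -0.37. Mcm4 was 1.27 times lower (1.00 to 1.63) and Mcm2 1.22 times (1.01 to 1.48). Both are long transcripts, with -0.20 and -0.14 after removal. Of the 6 MCM genes 4 were below 0, with a median of -0.09. This direction did not hold with the length trend removed, where 2 were below 0 and the median was 0.04. With upper-quartile factors 3 were below 0, and with library totals or TPM 5.

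**Figure D5:**
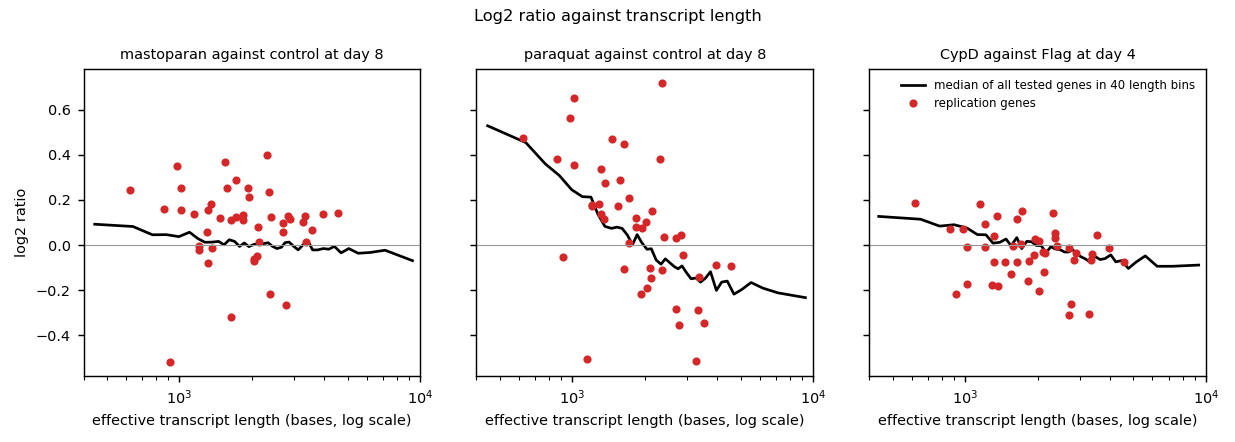
Log2 ratio against effective transcript length (log axis) for 3 comparisons, with the median of all genes in 40 length bins as a line and the 45 replication genes as points. In paraquat against control the line runs from 0.53 in the shortest bin to -0.23 in the longest, and in mastoparan against control from 0.09 to -0.07.

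The split of the 45 genes with paraquat turned with the scaling: it was 21 above and 24 below with library totals alone, where the median of all genes was -0.13, and 17 above and 28 below with deposited TPM, where it was -0.29. Relative to all genes the median of the 45 was higher by 0.11 under TMM and library totals, by 0.21 with TPM and by 0.05 with the trend along length, or length and GC, removed. The summed counts gave a fold of 1.10 (1.07 to 1.13), and those of all genes tested 1.075. Other replication genes were 27 above and 37 below, with a median of -0.08. The helicase Mcm8 was at -0.84 (-0.69 without the trend), Dck at -0.73 (-0.61), Mtbp at -0.71 (-0.79) and Rif1 at -0.71 (-0.59). Nme1 was at 0.63 (0.50), Orc5 at 0.62 (0.10), Rnaseh2b at 0.53 (0.45) and cyclin E1 (Ccne1) at 0.53 (0.48). Asf1a, which shares 65.9% of its windows with the overlapping Mcm9, was at 0.53 (0.54). Of the 28 mitosis genes 20 were below 0, with a median of -0.11, and the lowest were the motor gene Kif11 (-0.84, and -0.63 without the trend) and Cenpf (-0.72 and -0.56).

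Set against each other, mastoparan was above paraquat for 24 of the 45 genes and below for 21, against 52.1% of all genes above. At least 1.5-fold higher with mastoparan were Rfc3 and Chaf1a (2 genes, against 9.54% of all genes), and none was 1.5-fold lower, against 7.54%. Among genes of at least 5 CPM these shares were 6.12% and 4.05%. Intervals lay above 1 for 6 (8.89%) and below 1 for 6 (10.3%). The higher genes were Rfc3, with a fold of 1.58 (1.13 to 2.22), Chaf1a, 1.54 (1.14 to 2.09), Prim2, 1.39 (1.01 to 1.94), Mcm2, 1.33 (1.11 to 1.61), Mcm4, 1.33 (1.05 to 1.71), and Rrm1, 1.17 (1.02 to 1.34). The lower genes were Gins3 (log2 -0.48), Dut (-0.40), Rfc2 (-0.35), Rfc5 (-0.34), Pold1 (-0.29) and Pcna (-0.21). With the length trend removed Chaf1a went from 0.61 to 0.49 and was no longer past 1.5-fold, while Rfc3 went from 0.65 to 0.80. Mcm2 went from 0.41 to 0.29, Mcm4 from 0.41 to 0.27, Rrm1 from 0.23 to 0.04, and Prim2 stayed at 0.47. Among the lower genes Gins3 was then at -0.57, Rfc2 at -0.29, Rfc5 at -0.25, Pold1 at -0.21, Dut at -0.17 and Pcna at -0.10. The sign of Rfc5 turned with deposited TPM (0.03). That scaling moved the split to 31 above and 14 below, while the median of all genes moved to 0.23. Of the mitosis genes 23 of 28 were above 0, with a median of 0.17.

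Per length, the order of the 45 genes was much alike in the 5 libraries. Dut and Pcna held the highest ranks in each, followed by Pold2, Tk1 and Mcm7 at ranks 3 to 6. Cdc6, Pole2 and Orc1 held ranks 43 to 45. Rfc2 was the highest and Rfc1 the lowest subunit of the clamp loader in each library, and Pold2 the highest and Pold3 the lowest of polymerase delta. In CAF-1 the TPM of Chaf1b was 1.64 to 2.11 times that of Chaf1a in 4 libraries and 3.33 times with paraquat. TPM rests on the deposited effective length, which differs between libraries for genes with several transcripts. Pola2, for example, was 1.04 to 2.66 times Pola1 in TPM.

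Genes with and without the E2F letters both showed the day difference. Of all 13584 genes tested 28.1% were lower in all day-8 libraries, and the share among tested genes with the letters was not counted. Of the 14 replication genes with a match 12 were lower in all day-8 libraries, with a median log2 difference of -0.59 and a range from -1.26 (Pole2) to 0.42 (Gins3). Of the 23 without one 17 were lower, with a median of -0.47 and a range from -1.10 to 0.24. These ranges overlap, and the Gins3 match lies in a window that overlaps an annotated Gins3 exon. A gene without the exact letters in these windows can still be under E2F control, so the split cannot separate the 2 kinds of gene. The part of E2F in the day difference was not tested.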

How the data were processed

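Per the labels' protocols, Trizol RNA (1 ug) went into TruSeq libraries. Bowtie2 2.2.5 and mm10 are named in the submitters' processing notes. Not given in the sources used here: counting program, annotation and strand setting. The deposited tables, per the file headers, hold for each gene an expected count and a TPM, with an effective length in bases. Each group had 1 library of 2426015 to 3426702 expected counts, so depth limits what can be seen in genes with few counts.

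IDs were matched to GENCODE M21 on GRCm38, the assembly of mm10, where 28756 of 29267 had a symbol. Expected counts were rounded, scaled with TMM factors (edgeR 4.0.16, R 4.3.3) over all 5 libraries and turned into CPM, with a pseudocount of 0.5 CPM and a minimum mean of 1 CPM over the libraries compared (over all 5 for the days). Genes whose groups do not overlap were counted between days. Shared sequence is the share of a gene's 49-base windows also found in another gene. Named are all 45 genes. In each comparison those whose interval leaves out 1 are described singly, up to 12 in each direction, and from each other replication or mitosis list up to 4. Between days a gap is given for the 8 genes with the widest gaps below and for the 1 gene above. The 45 genes, the lists of other replication, mitosis and marker genes, and the comparisons were chosen with earlier results of these data known. The day-8 control against Flag, and Fen1 summed with Gm10143, were added after seeing the values.

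Alternatives were library totals, DESeq2 1.42.0 size factors, upper-quartile factors, deposited TPM, no minimum or 5 CPM, pseudocounts of 0.1 and 2 CPM, removal of trends along length or length and GC (medians of 40 bins), leaving out the 20 most abundant and mitochondrial genes, leaving out genes sharing at least 20% of their windows, and leaving out each library. Python 3.11.15, numpy 2.4.6, scipy 1.17.1, pandas 2.3.3 and matplotlib 3.10.9 were used, and the code was tested on simulated data. Protein motifs were not analysed here.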

Additional observations from a re-analysis of the deposited data

How the results depend on the processing

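No paired analysis was possible because each group has 1 library. A median counted as held within the order-statistic interval of the 45 genes, a count within 1.5 times, and a single gene within its counting interval. Of the medians and counts under other settings 178 held and 20 moved. All 45 genes pass both other minimum levels, so values of the 45 genes could not move under those settings, and these are among the held. The interval of a median reflects the spread between genes, so a held median can change sign. That of paraquat against control went from 0.08 to -0.02 with library totals alone and counted as held. With deposited TPM the median log2 ratio of the 45 genes was 0.0642 for mastoparan against control, with 1 gene 1.5-fold lower (7.19% of all genes), and -0.0765 for paraquat against control, with 5 genes 1.5-fold lower (22.4% of all genes). For mastoparan against paraquat TPM gave a median of 0.10, with 5 genes higher (18.2% of all genes) and 2 lower (5.33%) by 1.5-fold. With library totals alone, paraquat against control had 1 gene higher (5.64%) and 2 lower (13.3%), and mastoparan against paraquat had a median of 0.13. With the length trend removed, paraquat against control had 1 gene higher (6.56%) and 1 lower (8.5%), and with length and GC removed also 1 (6.59%) and 1 (8.31%). Mastoparan against paraquat had 1 gene higher in both cases (8.17% and 7.93%) and with upper-quartile factors (8.70%). Leaving out genes that share at least 20% of their windows also gave 1, since Chaf1a is then left out. The cause of the other shifts was not tested. Leaving out 1 library gave 32 to 40 genes below (32.2% to 36.4% of all genes) and 1 to 3 above (31.8% to 36.1%) in all day-8 libraries. Single genes were followed only for 47 values, those whose interval leaves out 1 and Fen1: 499 of their alternatives held, 19 moved and 3 turned sign. The turned values were Lig1 for mastoparan against control (-0.0322 with TPM), Rfc5 for mastoparan against paraquat (0.0297 with TPM) and Rrm1 for that pair (-0.0069 with length and GC removed). Over all 45 genes more turned sign, up to 11 for paraquat against control (TPM), 13 for mastoparan against paraquat (length and GC removed), 7 for mastoparan against control (TPM) and 8 for CypD against Flag (length removed). The median for the day-8 control against Flag lay between -0.57 and -0.47 under all settings run. Genes with few counts, such as Orc1 (17 to 48) and Pole2 (18 to 68), have wide counting intervals.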
